A study of Homo sapiens with 9 samples.

Results

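The genes described here copy DNA and take cells from G1 into S phase. They are 38 named genes, chosen by symbol from a list of replication and S-phase entry genes and not by their values, out of 58243 gene identifiers in each count file. Earlier results of these data were known when they were chosen. RNA-seq counts came from DOHH2 cells, a human line established from a transformed follicular lymphoma of B cells. Of the 9 libraries, 3 were made from DOHH2 in culture on the day of grafting (D0). The others were 3 from human CD20-positive cells sorted out of femurs of grafted RAGγc mice at day 19 (D19) and 3 from such cells at day 40 (D40). RAGγc mice are immunodeficient hosts that keep their own stromal, endothelial and myeloid cells. All groups carry the genome of this 1 line, and the labels name neither the animals behind a library nor whether animals were pooled. The p-values therefore measure the spread between these libraries, which may be technical in part.

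Before S phase, ORC, CDC6 and CDT1 load a ring of the MCM2 to MCM7 proteins onto each origin, a step called licensing. CDC45 and the GINS complex then switch the ring on as a helicase, primase starts each strand, PCNA and its RFC loader hold the polymerases on DNA, and FEN1 and LIG1 finish the lagging strand. E2F transcription factors, held back by RB1 and released when cyclins D and E activate their kinases, drive transcription of many of these genes, and replication genes of this kind are expressed strongly in dividing lymphoma cells.

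The promoters of the 4 genes with the largest positive change at day 19 and of the 4 with the largest negative change, among the genes that the promoter table holds, are shown because E2F binding is the textbook link between these genes. Each sequence is the 120 bases before the transcription start in RefSeq (GRCh38.p14), read 5′ to 3′ on the gene's strand, and capitals mark an E2F-type word (TTTCCCGC, TTTGGCGC or TTTCGCGC, on either strand). The first 4 lie on the minus strand at chr1:23531234-23531353 (E2F2), chr19:48170345-48170464 (LIG1), chr20:33686386-33686505 (E2F1) and chr12:132687343-132687462 (POLE). Of the other 4, PRIM1 (chr12:56752324-56752443), SLBP (chr4:1712320-1712439) and TK1 (chr17:78187053-78187172) lie on the minus strand and RRM1 (chr11:4094565-4094684) on the plus strand.
E2F2: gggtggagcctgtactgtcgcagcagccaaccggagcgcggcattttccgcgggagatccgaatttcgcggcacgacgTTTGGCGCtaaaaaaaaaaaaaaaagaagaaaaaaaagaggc
LIG1: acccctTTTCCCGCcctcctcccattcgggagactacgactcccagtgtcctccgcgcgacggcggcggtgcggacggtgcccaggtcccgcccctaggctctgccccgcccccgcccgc
E2F1: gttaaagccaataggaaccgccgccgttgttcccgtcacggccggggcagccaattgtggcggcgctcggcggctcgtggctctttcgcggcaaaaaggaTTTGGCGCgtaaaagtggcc
POLE: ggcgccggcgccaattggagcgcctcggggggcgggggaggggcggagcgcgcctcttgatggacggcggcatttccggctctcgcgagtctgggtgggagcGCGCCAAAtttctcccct
PRIM1: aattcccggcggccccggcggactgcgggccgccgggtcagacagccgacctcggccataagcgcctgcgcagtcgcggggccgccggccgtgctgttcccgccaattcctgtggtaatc
SLBP: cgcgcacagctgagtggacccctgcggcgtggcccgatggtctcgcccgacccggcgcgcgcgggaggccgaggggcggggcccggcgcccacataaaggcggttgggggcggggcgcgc
TK1: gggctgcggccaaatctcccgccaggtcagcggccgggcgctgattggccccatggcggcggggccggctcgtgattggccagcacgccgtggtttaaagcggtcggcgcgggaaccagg
RRM1: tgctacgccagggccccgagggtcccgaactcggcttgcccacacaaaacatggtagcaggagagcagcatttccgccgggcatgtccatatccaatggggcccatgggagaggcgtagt

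The first 4 stretches each hold 1 E2F-type word, starting 42, 114, 20 and 18 bases before the start in E2F2, LIG1, E2F1 and POLE, and the other 4 hold none. Over the whole window of 250 bases before to 50 after the start, the word was found in 16 of the 33 genes with a promoter in the table (48.5%), against 961 of all 35116 promoters in it (2.74%). A window with several words was counted once, and words on opposite strands can overlap, as they do in MCM6, whose window holds 4. The word was found in 8 of 14 genes that were higher at day 19, 2 of 7 that were lower and 6 of 12 that were not called. A difference between these shares was not tested. MCM7, ORC1, MCM10 and UNG were higher at day 19 with none in the window, and MCM6 with 4 was not called. The CCAAT box (CCAAT) was in 20 of the 33 windows (60.6%) and 34.6% of all promoters, and the CHR-type word TTTGAA, a mark of many G2/M promoters, was in 2 (6.06%) and 15.2%, both counted on either strand. A match is a string of letters and not a measured binding site, and MCM4, MCM5, GINS4, RPA2 and CCNE2 are named only.

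Libraries held 21071239 to 29456271 counts, and levels are given as CPM, read counts relative to a library size scaled by TMM, a method that takes most genes as unchanged. All 38 genes passed the filter on low counts, with at least 400 counts in every library (CCNE1) and up to 31589 (MCM7). Fold changes and adjusted p come from edgeR's quasi-likelihood test fitted over all 15163 genes that passed the filter, with Benjamini-Hochberg adjustment over all of them. A gene with an adjusted p under 0.05 is called higher or lower. The B-cell markers MS4A1, CD79A, CD79B and PAX5 were all detected, with a summed level of 2428 to 3145 CPM in culture, 1806 to 2015 CPM at day 19 and 1979 to 2163 CPM at day 40. Of 8 stromal and osteolineage markers, 5 (COL1A2, COL3A1, LUM, POSTN, CXCL12) were at 0 in all libraries. The list summed to 0.137 to 0.504 CPM in culture, 4.05 to 6.80 CPM at day 19 and 3.44 to 4.57 CPM at day 40, nearly all of it PDGFRB in the femur. The 5 T-cell markers summed to 21.9 to 28.9, 6.52 to 7.82 and 15.3 to 18.0 CPM at days 0, 19 and 40, mostly TRAC. The 6 myeloid markers (S100A8 and S100A9 at 0) summed to 2.63 to 6.29 CPM over the 9 libraries, the 5 endothelial markers (CDH5, KDR and EMCN at 0) to 1.61 to 7.61 CPM. The 4 erythroid markers (HBB and HBA2 at 0) summed to at most 0.164 CPM. The part of these differences in the results was not tested. Bone digestion, bead depletion and sorting were steps of the femur cells and not of the culture cells, so handling and growth in the femur cannot be told apart. The dated titles place day 40 replicates 1 and 2 only 11 and 26 days past their period's culture library, which cannot be 40 days. Day 40 results are therefore also given without them.

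Replication gene transcripts changed little in the femur. At day 19, 15 of the 38 genes were higher than in culture and 8 were lower, and 15 were not called. None changed 2-fold or more: the log2 fold changes against culture ran from -0.54 (PRIM1) to 0.70 (E2F2), and 32 of 38 were under 0.5 in size. At day 40, 9 genes were higher and 7 lower than in culture, between -0.55 (PRIM1) and 0.41 (RFC3).

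These counts stand beside a wide change over all genes. At day 19, 26.3% of all genes tested were called higher and 26.5% lower, against 39.5% and 21.1% of the 38 genes. At day 40 the shares over all genes were 23.3% higher and 23.3% lower, and those of the 38 genes, 23.7% and 18.4%, were near them. The median log2 fold change of the 38 genes was 0.10 at day 19 and 0.00 at day 40, against 0.01 and 0.02 over all genes tested. The changes of the 38 genes were small in size, with a median absolute log2 fold change of 0.201 at day 19 and 0.152 at day 40, against 0.389 and 0.333 over all genes tested. Abundant genes are measured with less error. Over the 7314 genes at or above the lowest mean of the 38 genes (19.9 CPM) the medians were 0.275 and 0.236. Of these, 24.6% were called higher and 36.5% lower at day 19, and 21.1% and 33.7% at day 40. Scaled by total counts in place of TMM, the split was 19 higher and 3 lower at day 19 and 14 higher and 4 lower at day 40. The median log2 fold change of all genes moved to 0.10 at both days. Day 19 and day 40 share the culture libraries, so their values against culture are not independent of each other. In bulk RNA, a change in the share of cells in S phase and a change in RNA per such cell cannot be told apart.

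**Figure D1:**
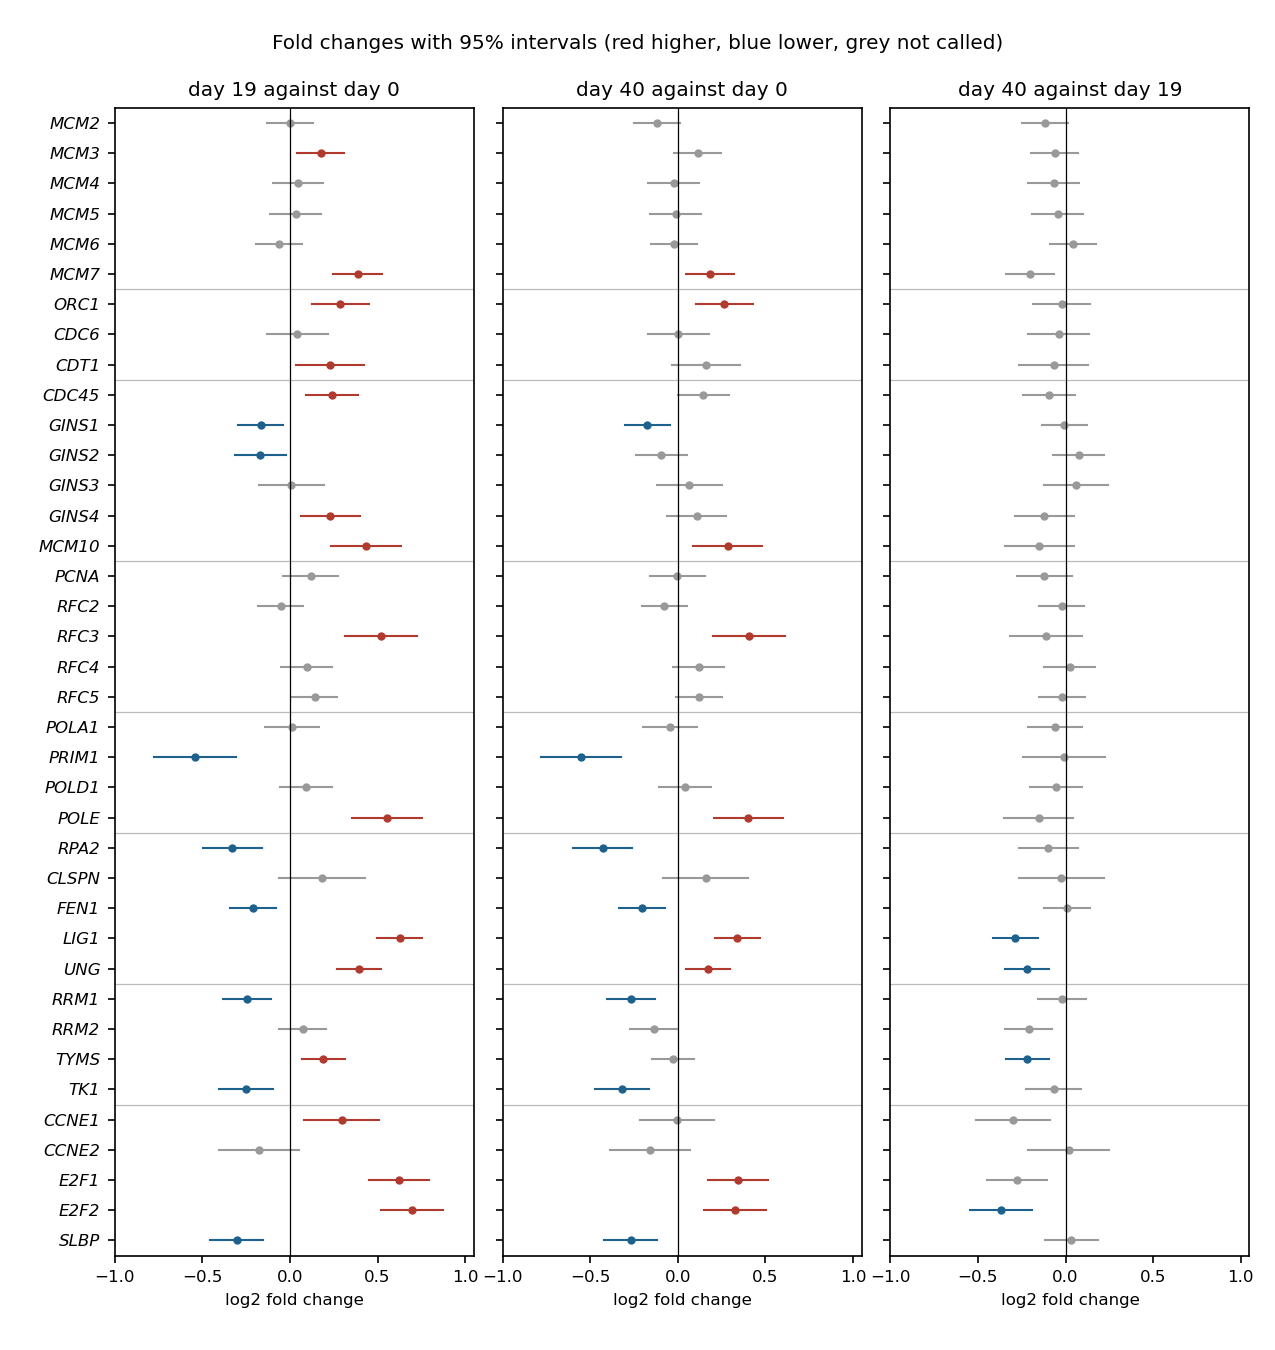
Log2 fold changes with 95% intervals for the 38 genes, in 3 panels that run from day 19 over culture, through day 40 over culture, to day 40 over day 19. Red marks genes called higher, blue genes called lower and grey genes not called by edgeR at an adjusted p under 0.05, and all points lie between -0.55 and 0.70.

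**Figure D2:**
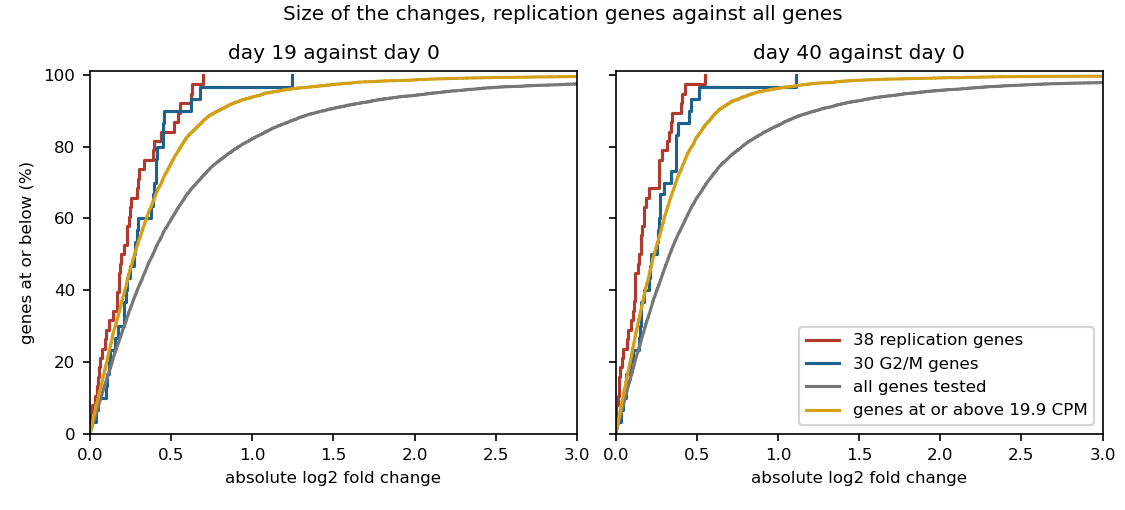
Share of genes (vertical axis, percent) whose absolute log2 fold change is at or below the value on the horizontal axis, which is drawn to 3, for the 38 replication genes, 30 G2/M genes, all 15163 genes tested and the 7314 genes at or above 19.9 CPM. The replication genes end at 0.70 at day 19 and 0.55 at day 40.

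The MCM2-7 ring is the motor of the replicative helicase, and its 6 genes were among the most abundant of the 38 in CPM, which ignores gene length. Per kilobase of merged exons, MCM6 and MCM5 ranked 13 and 14 in culture. Only MCM7 and MCM3 were called at day 19, both higher, and MCM7 at day 40. MCM7 (chromosome 7, 100092728 to 100101940) was at 877, 915 and 930.2 CPM in the culture libraries, 1195, 1186 and 1179 CPM at day 19, and 999, 1059 and 1036 CPM at day 40. Culture was lowest and day 19 highest in every library, and the 3 groups did not overlap. Its log2 fold change against culture was 0.39 at day 19 (SE 0.06, adjusted p = 3.12e-04) and 0.18 at day 40 (SE 0.06, adjusted p = 0.0323). MCM3 (chromosome 6, 52264009 to 52284881) was at 428, 459 and 446 CPM in culture, 525, 496 and 485 CPM at day 19, and 482, 476 and 485 CPM at day 40, with every femur library above every culture library. Its log2 fold change was 0.18 at day 19 (SE 0.06, adjusted p = 0.0296) and 0.11 at day 40 (adjusted p = 0.147). MCM2, MCM4, MCM5 and MCM6 lay between -0.06 and 0.05 at day 19 and between -0.12 and -0.01 at day 40 on the log2 scale, none of them called. The MCM3 call was lost when any day 19 library, day 40 replicate 2 or 3, or culture replicate 1 or 3 was left out (adjusted p = 0.0514 to 0.142). The day 40 call of MCM7 was lost without any day 19 library, day 40 replicate 2 or 3, or culture replicate 1 (adjusted p = 0.0535 to 0.123). MCM7 exons overlap AP4M1 on the other strand, and reads there cannot be assigned without a stated strand setting.

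Of the origin licensing genes, ORC1 and CDT1 were called higher and CDC6 was not called. ORC1, the largest subunit of the origin recognition complex (chromosome 1, 52372829 to 52404459), was at 66.8, 68.8 and 74.9 CPM in culture, 86.1, 83.8 and 87.2 CPM at day 19, and 93.4, 77.7 and 82.0 CPM at day 40. Every femur library was above the culture libraries, with log2 fold changes of 0.29 at day 19 (SE 0.08, adjusted p = 0.00679) and 0.27 at day 40 (SE 0.08, adjusted p = 0.0126). CDT1, which brings the MCM ring to the origin (chromosome 16, 88803213 to 88809258), was at 157, 191 and 157 CPM in culture, 188, 193 and 211 CPM at day 19, and 178, 179 and 208 CPM at day 40. Culture replicate 2 lay inside the femur range, so the groups overlapped, and the log2 fold change was 0.23 at day 19 (SE 0.09, adjusted p = 0.0487) and 0.16 at day 40 (adjusted p = 0.161). CDC6, the loader that works with CDT1, averaged 105 ± 1.87 CPM in culture, 108 ± 3.90 CPM at day 19 and 105 ± 13.1 CPM at day 40 (SD, n = 3 each) and was not called. The day 40 call of ORC1 was lost without day 40 replicate 1 (adjusted p = 0.0682). The CDT1 call was lost without any day 19 library, day 40 replicate 1 or 2, or culture replicate 1 or 3 (adjusted p = 0.0606 to 0.198).

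The genes that turn the loaded ring into a moving helicase went in both directions. MCM10, which helps to open the activated helicase (chromosome 10, 13161554 to 13211104), was at 67.9, 63.2 and 72.2 CPM in culture, 93.7, 86.8 and 94.4 CPM at day 19, and 89.6, 70.3 and 88.1 CPM at day 40. All day 19 libraries were above culture, while day 40 replicate 2 fell inside the culture range. The log2 fold change was 0.43 at day 19 (SE 0.09, adjusted p = 0.00169) and 0.29 at day 40 (SE 0.09, adjusted p = 0.0223). CDC45 joins the ring together with GINS to make the active helicase (chromosome 22, 19479459 to 19520612). It was at 57.2, 64.8 and 63.6 CPM in culture, 70.4, 75.2 and 73.7 CPM at day 19, and 65.4, 70.3 and 69.7 CPM at day 40. It stood above culture in every femur library, and was called at day 19 (log2 fold change 0.24, SE 0.07, adjusted p = 0.0100) and not at day 40 (0.15, adjusted p = 0.0947). The GINS complex has 4 subunits, and the calls on their genes went in both directions. GINS4 (chromosome 8, 41529206 to 41545046) was at 31.5, 29.1 and 31.5 CPM in culture, 34.0, 39.0 and 35.2 CPM at day 19, and 32.1, 34.2 and 33.1 CPM at day 40. It was higher at day 19 by 0.23 on the log2 scale (SE 0.08, adjusted p = 0.0243). GINS1 was lower at both femur days, with a log2 fold change of -0.17 each (adjusted p = 0.0308 at day 19 and 0.0285 at day 40). GINS2 was lower at day 19 (-0.17, adjusted p = 0.0497), and GINS3 was not called (0.01 and 0.07). GINS4 exons overlap other transcripts on the opposite strand by more than 1000 bases, so its value is uncertain.

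Several of these calls were lost when a single library was left out or another setting was used. The day 40 call of MCM10 was lost without day 40 replicate 1 or 3 or culture replicate 1 or 2 (adjusted p = 0.0519 to 0.102). The GINS4 call was lost without day 19 replicate 2 or 3 or culture replicate 2 (adjusted p = 0.0528 to 0.118). The GINS1 call at day 19 was lost without day 19 replicate 2 or 3 or culture replicate 1 or 3 (adjusted p = 0.0516 to 0.0965). At day 40 it was lost without day 40 replicate 1 or 2 or culture replicate 1 (adjusted p = 0.0504 to 0.0841). The GINS2 call was made in 4 of 17 alternatives. It was lost without any day 19 library, day 40 replicate 3, or culture replicate 1 or 2 (adjusted p = 0.0523 to 0.143), with DESeq2 and limma voom, with the period as a block (adjusted p = 0.0583), with total counts or DESeq2 size factors as the scaling, with no filter, and with only the 2 groups compared. Scaled by total counts, GINS1 was not called at day 19 or day 40 (adjusted p = 0.308 and 0.252).

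Of the sliding clamp PCNA and the loader genes among the 38, RFC3 was the gene called. RFC3, a small subunit of the clamp loader (chromosome 13, 33818049 to 33966558), was at 76.7, 72.9 and 86.4 CPM in culture, 112, 108 and 118 CPM at day 19, and 92.9, 100.2 and 120.3 CPM at day 40. Each femur library was above each culture library, and the log2 fold change was 0.52 at day 19 (SE 0.09, adjusted p = 6.32e-04) and 0.41 at day 40 (SE 0.09, adjusted p = 0.00394). PCNA averaged 331 ± 31.2 CPM in culture, 359 ± 10.7 CPM at day 19 and 330.1 ± 7.20 CPM at day 40 (SD, n = 3 each). It was not called (0.12 and 0.00 on the log2 scale), nor were the other loader genes RFC2, RFC4 and RFC5, whose log2 fold changes lay between -0.08 and 0.14. Scaled by total counts, PCNA was called higher at day 19 (adjusted p = 0.0145) and RFC4 and RFC5 at both days (adjusted p = 0.0398 and 0.0293, and 0.00971 and 0.02). RFC1, the largest loader subunit, is not among the 38 genes and was lower at day 19, with a log2 fold change of -0.19 (SE 0.06, adjusted p = 0.024), and not called at day 40 (-0.09, adjusted p = 0.275).

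Among the polymerases and primase, POLE was higher in the femur, PRIM1 was lower, and POLA1 and POLD1 were not called. POLE encodes the catalytic subunit of polymerase epsilon, the leading-strand enzyme (chromosome 12, 132623753 to 132687365). It was at 229, 203 and 272 CPM in culture, 338, 361 and 333 CPM at day 19, and 314, 307 and 309 CPM at day 40. All femur libraries were above all culture libraries, by a log2 fold change of 0.55 at day 19 (SE 0.09, adjusted p = 2.92e-04) and 0.40 at day 40 (SE 0.09, adjusted p = 0.00337). PRIM1 encodes the catalytic subunit of primase, which lays down the RNA primers (chromosome 12, 56731596 to 56752373). It was at 30.4, 41.3 and 35.3 CPM in culture, 24.2, 23.1 and 26.1 CPM at day 19, and 22.9, 25.4 and 24.6 CPM at day 40. All femur libraries were below all culture libraries, by a log2 fold change of -0.54 at day 19 (SE 0.11, adjusted p = 0.00111) and -0.55 at day 40 (SE 0.11, adjusted p = 0.00122). POLA1, the polymerase that works with primase, and POLD1, the lagging-strand polymerase, were at 0.01 and 0.09 at day 19 and -0.04 and 0.04 at day 40 on the log2 scale. PRIM1 exons share 362 bases with AC117378.1 and 33 with NACA on the same strand and 132 with HSD17B6 on the other. POLD1 exons share 426 bases with AC020909.1 on the same strand.

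Partner subunits of these enzymes, named after their values were seen, are set beside them. Against culture, the log2 fold changes at days 19 and 40 were -0.35 and -0.35 for PRIM2, the other primase subunit (adjusted p = 0.00314 and 0.00402). They were 0.47 and 0.46 for POLE2, the second subunit of polymerase epsilon (adjusted p = 0.00144 and 0.00207). The small histone-fold subunits of that polymerase were lower, with -0.19 and -0.26 for POLE3 (adjusted p = 0.0137 and 0.00248) and -0.40 and -0.44 for POLE4 (adjusted p = 0.0117 and 0.00871). POLA2, the partner of POLA1, was not called (0.03 and -0.09, adjusted p = 0.732 and 0.286). Of the partners of POLD1, POLD2 was called lower at day 40 only (-0.26, adjusted p = 0.00664). POLD3 was called higher at day 19 only (0.22, adjusted p = 0.0106), and POLD4 is described below.

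Genes that protect, trim, seal and repair new strands also split. LIG1, the ligase that joins Okazaki fragments (chromosome 19, 48115445 to 48170603), was at 154, 144 and 157 CPM in culture, 232, 242 and 229 CPM at day 19, and 189, 199 and 188 CPM at day 40. The 3 groups did not overlap, and the log2 fold change was 0.63 at day 19 (SE 0.06, adjusted p = 3.73e-06) and 0.34 at day 40 (SE 0.06, adjusted p = 6.59e-04). UNG is the glycosylase that removes uracil from DNA and in B cells also acts in antibody diversification (chromosome 12, 109097574 to 109110992). It was at 122, 127 and 121 CPM in culture, 165, 161 and 161 CPM at day 19, and 133, 139 and 146 CPM at day 40. Its groups did not overlap either, with log2 fold changes of 0.39 at day 19 (SE 0.06, adjusted p = 1.25e-04) and 0.17 at day 40 (SE 0.06, adjusted p = 0.0273). RPA2, a subunit of the protein that coats single-stranded DNA (chromosome 1, 27891524 to 27914746), was at 77.5, 94 and 86.4 CPM in culture, 70.1, 68.1 and 66.9 CPM at day 19, and 68.4, 62.4 and 60.8 CPM at day 40. Every femur library was below every culture library, with log2 fold changes of -0.33 at day 19 (SE 0.08, adjusted p = 0.00346) and -0.43 at day 40 (SE 0.08, adjusted p = 7.99e-04). Its partners, named after their values were seen, were lower too at days 19 and 40. The log2 fold changes were -0.19 and -0.17 for RPA1 (adjusted p = 0.0145 and 0.0295) and -0.70 and -0.58 for RPA3 (adjusted p = 8.97e-05 and 4.65e-04). FEN1, the flap nuclease that acts just before LIG1, was lower at both days (-0.21 and -0.20 on the log2 scale, adjusted p = 0.0103 and 0.0155). CLSPN, a fork protection and checkpoint adaptor, was not called at 0.18 and 0.16. The day 40 call of UNG was lost without day 19 replicate 1 or 3, day 40 replicate 2 or 3, or culture replicate 1 or 3 (adjusted p = 0.0524 to 0.150). Scaled by total counts, FEN1 was not called at either day (adjusted p = 0.146 and 0.172). Its day 40 call was also lost without day 40 replicate 2 or culture replicate 1 (adjusted p = 0.0525 and 0.0543).

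Among the nucleotide synthesis genes, TK1 and RRM1 were lower in the femur at both days and TYMS was higher at day 19. Their summed level was 756 to 795 CPM in culture, 733 to 748 CPM at day 19 and 669 to 685 CPM at day 40. The lower sum at day 19 depended on the scaling: as CPM on total counts, with no scaling factor, the sum averaged 745 in culture, 757 at day 19 and 691 at day 40. TK1, the cytosolic thymidine kinase of S phase (chromosome 17, 78174075 to 78187233), was at 125, 149 and 135 CPM in culture, 111, 114 and 118 CPM at day 19, and 103, 111 and 113 CPM at day 40. RRM1, the large subunit of ribonucleotide reductase (chromosome 11, 4094707 to 4138876), was at 289.5, 267 and 298 CPM in culture, 253, 232 and 236 CPM at day 19, and 234, 239 and 238 CPM at day 40. For both genes no femur library reached the culture range. The log2 fold changes at day 19 were -0.25 for TK1 (SE 0.07, adjusted p = 0.0108) and -0.24 for RRM1 (SE 0.06, adjusted p = 0.00623). At day 40 they were -0.32 for TK1 (SE 0.07, adjusted p = 0.00321) and -0.27 for RRM1 (SE 0.06, adjusted p = 0.00453). TYMS, thymidylate synthase (chromosome 18, 657604 to 673578), was at 165, 162 and 161 CPM in culture, 182, 193 and 180.5 CPM at day 19, and 157, 160.1 and 161 CPM at day 40. Only the day 19 libraries stood apart, with a log2 fold change against culture of 0.19 at day 19 (SE 0.06, adjusted p = 0.0121) and -0.03 at day 40 (adjusted p = 0.712). RRM2, the small subunit that sets reductase activity in S phase, was not called against culture (0.07 and -0.14). RRM2 exons share 1077 bases with AC007240.1 on the same strand, so its value is uncertain too. Scaled by total counts, RRM1 at both days and TK1 at day 19 were not called (adjusted p = 0.0945, 0.0609 and 0.0614). The TYMS call at day 19 was lost without day 19 replicate 2 (adjusted p = 0.0637). TYMS exons overlap 967 bases of ENOSF1 on the opposite strand, so its value is uncertain.

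Among the regulators of S-phase entry, E2F1, E2F2 and CCNE1 were higher at day 19 and SLBP was lower, and E2F2 had the largest fold change of the 38 genes. E2F2, an activator E2F (chromosome 1, 23506430 to 23531220), was at 249, 236 and 245 CPM in culture, 353, 426 and 404 CPM at day 19, and 295, 287 and 334 CPM at day 40. E2F1, its close relative (chromosome 20, 33675683 to 33686404), was at 150.1, 174 and 159.8 CPM in culture, 228, 271 and 246 CPM at day 19, and 195, 209 and 211 CPM at day 40. In both genes culture was lowest, day 40 between and day 19 highest, with no overlap between the groups. The log2 fold change at day 19 was 0.70 for E2F2 (SE 0.08, adjusted p = 2.14e-05) and 0.62 for E2F1 (SE 0.08, adjusted p = 3.78e-05). At day 40 it was 0.33 for E2F2 (SE 0.08, adjusted p = 0.00603) and 0.34 for E2F1 (SE 0.08, adjusted p = 0.00349). SLBP binds the stem-loop of histone mRNAs and accumulates in S phase (chromosome 4, 1692800 to 1712555). It was at 224, 239 and 217 CPM in culture, 192, 184 and 174 CPM at day 19, and 201, 186 and 177 CPM at day 40, below culture in every femur library. Its log2 fold change was -0.30 at day 19 (SE 0.07, adjusted p = 0.00293) and -0.27 at day 40 (SE 0.07, adjusted p = 0.00716). CCNE1, one of the cyclins E that switch on CDK2, averaged 18.5 ± 1.36 CPM in culture, 22.7 ± 2.01 CPM at day 19 and 18.4 ± 1.04 CPM at day 40 (SD, n = 3 each). It was called higher at day 19 (log2 fold change 0.29, SE 0.10, adjusted p = 0.0231). That call was lost without day 19 replicate 2 or culture replicate 1 (adjusted p = 0.0864 and 0.11). CCNE2, the other cyclin E, was not called (-0.18 and -0.16), and its exons overlap 1629 bases of INTS8.

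**Figure D3:**
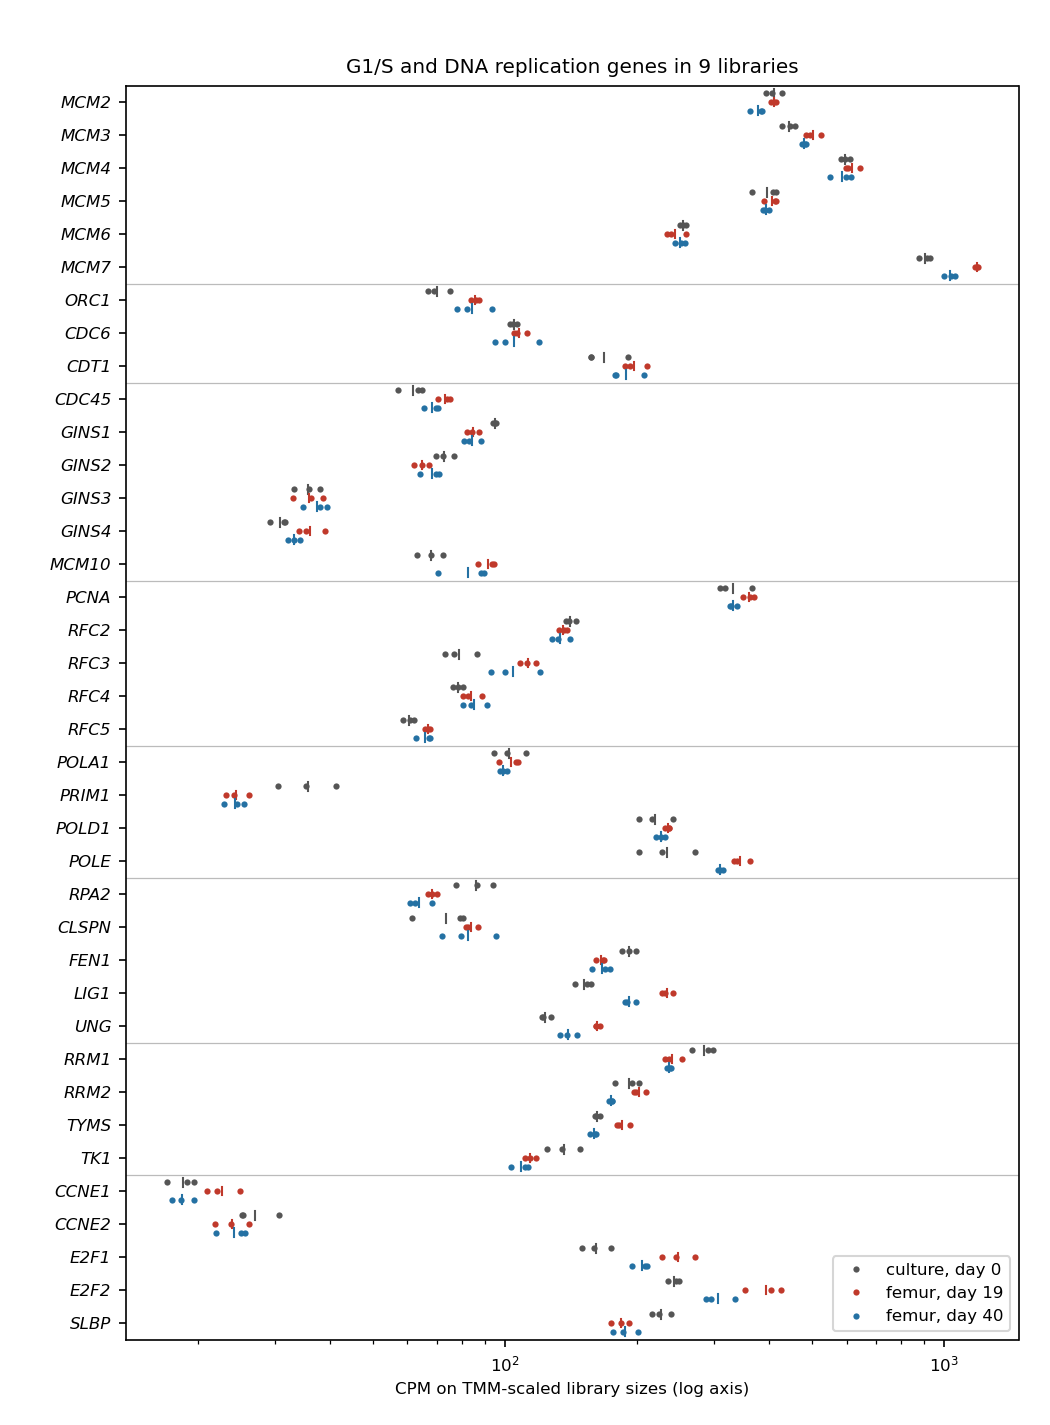
Levels of the 38 genes in CPM on a log axis, with a point per library and a tick at the group mean, for culture, day 19 and day 40, and grey lines between roles. E2F1, E2F2, LIG1 and UNG are among the genes with 3 groups that do not overlap and day 19 at the right, as are MCM7 and POLE. PRIM1 and RPA2 are among those with both femur groups left of culture, as are SLBP and TK1.

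The 15 genes not called at day 19 were MCM2, MCM4, MCM5, MCM6, CDC6, GINS3, PCNA, RFC2, RFC4, RFC5, POLA1, POLD1, CLSPN, RRM2 and CCNE2. Their 95% intervals lay within -0.40 (CCNE2) and 0.43 (CLSPN) on the log2 scale, so larger changes than these lay outside them, while a p that misses the threshold does not show that a gene stayed level. The 22 genes not called at day 40 were these and MCM3, CDT1, CDC45, GINS2, GINS4, TYMS and CCNE1, with intervals within -0.39 (CCNE2) and 0.40 (CLSPN).

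Summed over the 38 genes, the level was 6893, 7170 and 7165 CPM in culture, 7984, 7993 and 7829 CPM at day 19, and 7314, 7214 and 7419 CPM at day 40. The sum was highest at day 19 and the groups did not overlap. Abundant genes dominate it, MCM7 most of all. As a share of all counts, with no scaling, the genes took 0.655% to 0.717% in culture, 0.804% to 0.815% at day 19 and 0.731% to 0.751% at day 40. In 17 of the 38 genes the mean was lowest in culture, between at day 40 and highest at day 19, and in 5 the order was the reverse. These orders were not counted over all genes tested, so the numbers do not set the 38 genes apart. S-phase entry genes summed to 665 to 693 CPM in culture, 819 to 932 CPM at day 19 and 720.5 to 766 CPM at day 40. Polymerases and primase summed to 573 to 625, 701 to 713 and 655 to 664 CPM in the same order.

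**Figure D4:**
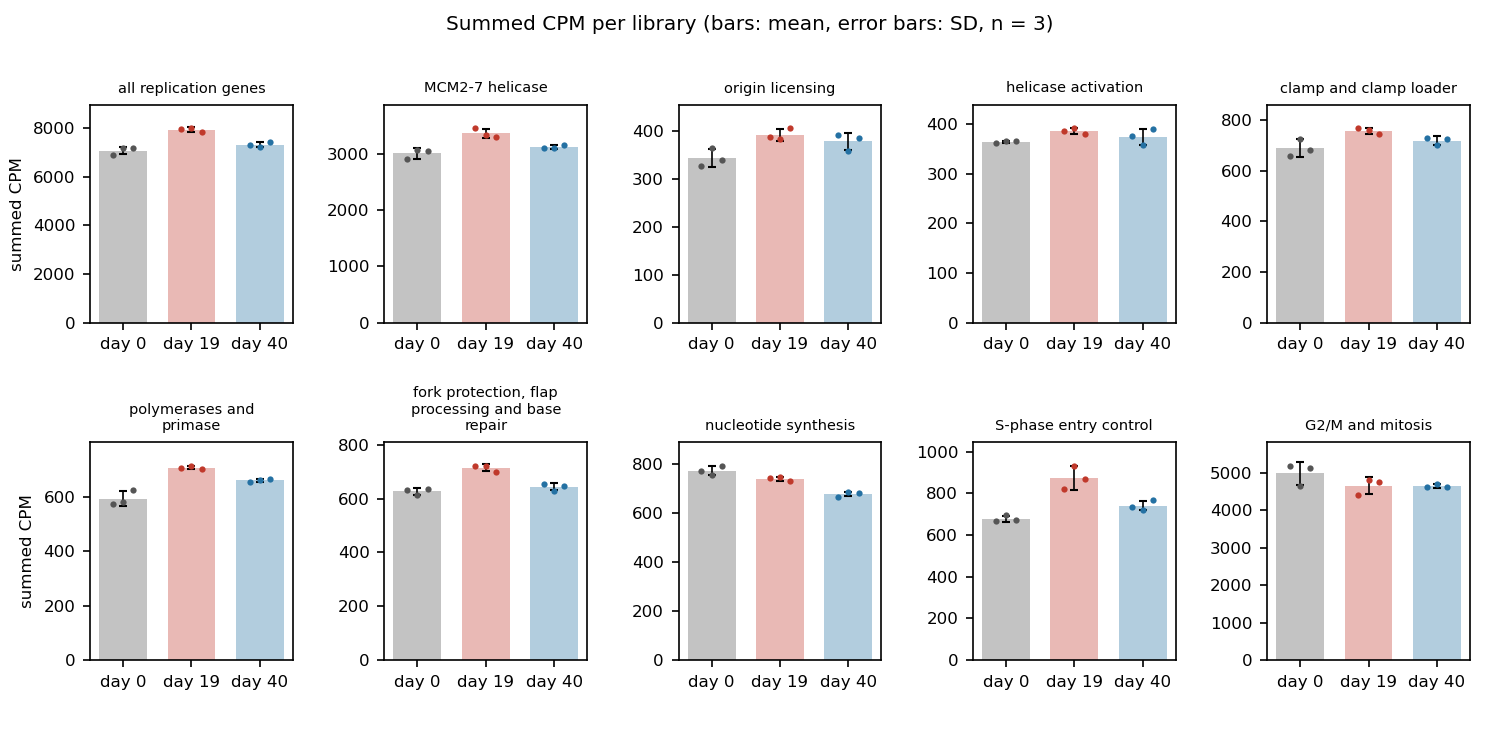
Summed CPM per library for all 38 genes, for each of their 8 roles and for 30 G2/M genes, with bars at the mean, error bars of 1 SD (n = 3) and a point per library. Of the 8 roles, nucleotide synthesis is the one with its highest bar in culture, which without scaling factors is highest at day 19 (757, against 745 in culture).

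Per kilobase of merged exons, PCNA (225 ± 21.2 RPKM) and MCM7 (207 ± 6.28 RPKM) were the most abundant of the 38 genes in culture (SD, n = 3). They traded places when the main transcript's length was used (243 ± 23 and 307 ± 9.31 RPKM). On the first scale PCNA and MCM7 did not differ beyond their spread, nor did GINS4 and CCNE2 at the other end. GINS4 was lowest on both scales (5.61 ± 0.249 and 8.0 ± 0.354 RPKM), next to CCNE2 (6.14 ± 0.697 and 8.11 ± 0.920 RPKM).

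Day 40 was set against day 19 to ask whether the genes went on changing in the femur. No gene was higher at day 40, with edgeR, DESeq2 or limma voom, and none had an unadjusted p under 0.05 in that direction, where 3.23% of all genes were called higher. LIG1, UNG, TYMS and E2F2 were lower, 10.5% of the 38 genes, against 1.45% of all genes tested and 2.00% of those at or above 19.9 CPM. The log2 fold changes, day 40 over day 19, were -0.29 for LIG1 (SE 0.06, adjusted p = 0.0162), -0.22 for UNG (SE 0.06, adjusted p = 0.0491), -0.22 for TYMS (SE 0.06, adjusted p = 0.0444), and -0.37 for E2F2 (SE 0.08, adjusted p = 0.0229). In each of the 4 genes every day 40 library was below every day 19 library. The same order within all 3 sampling periods follows from this and adds no support. In the fit with the sampling period as a block, UNG and TYMS were not called (adjusted p = 0.0538 and 0.0507), while E2F1 was (log2 fold change -0.27, adjusted p = 0.0198), and LIG1 and E2F2 stayed called. E2F1 (-0.28, adjusted p = 0.0664), RRM2 (-0.21, adjusted p = 0.0834), MCM7 (-0.20, adjusted p = 0.107) and CCNE1 (-0.30, adjusted p = 0.120) had unadjusted p under 0.05 and were not called. Signs were negative in 31 of the 38 genes, with a median of -0.07, while over all genes 7450 of 15163 were negative and the median was 0.00.

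These 4 calls were not stable to the loss of a library. The LIG1 call was lost without day 19 replicate 2 or 3 or day 40 replicate 1 or 3 (adjusted p = 0.0611 to 0.0990). The E2F2 call was lost without day 19 replicate 2 or 3 or day 40 replicate 1 or 2 (adjusted p = 0.0944 to 0.128). UNG and TYMS stayed called in 1 of the 9 fits that leave out a library, the fit without culture replicate 2. In the other fits their adjusted p was 0.0560 to 0.187 and 0.0507 to 0.220. With day 40 replicates 1 and 2 both left out, which leaves 1 day 40 library assumed to vary like the others, no gene was called between day 40 and day 19. Against culture 5 were then called higher at day 40 (MCM10 0.37, RFC3 0.60, LIG1 0.30, E2F1 0.38 and E2F2 0.45 as log2 fold changes) and 3 lower (PRIM1 -0.54, RPA2 -0.51 and SLBP -0.37).

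Other replication machinery went in both directions to a similar extent. Of 45 such genes, none of them among the 38, 16 were higher and 14 lower at day 19 (median log2 fold change 0.06), and 13 were higher and 13 lower at day 40 (median 0.00). The shares at day 19 were 35.6% higher and 31.1% lower, against 26.3% and 26.5% of all genes tested. At day 40 they were 28.9% and 28.9%, against 23.3% and 23.3%. POLD4, the smallest subunit of polymerase delta, had the largest change, at 29.7, 39.3 and 30.1 CPM in culture, 11.1, 9.5 and 6.98 CPM at day 19, and 18.6, 16.9 and 14.0 CPM at day 40. The femur libraries were all lower, by a log2 fold change of -1.85 at day 19 (SE 0.17, adjusted p = 2.76e-06) and -1.0 at day 40 (SE 0.16, adjusted p = 3.67e-04). POLD4 was the 1 gene of this list called between day 40 and day 19 (0.85, SE 0.17, adjusted p = 0.0143). No gene of the list was called higher there without day 19 replicate 2 or 3 or day 40 replicate 1. Its exons share 650 bases with AP003419.1 on the same strand. ATAD5, which takes PCNA off DNA, rose to 91.0 ± 1.70 CPM at day 19, against 53.3 ± 7.94 CPM in culture (SD, n = 3 each; log2 fold change 0.77, SE 0.10, adjusted p = 3.95e-05). CHTF18, the large subunit of an alternative clamp loader, was at 228 ± 12 CPM at day 19, against 131 ± 18.6 CPM in culture (0.80, SE 0.09, adjusted p = 1.57e-05). Its partners DSCC1 and CHTF8, named after their values were seen, were lower at day 19, with log2 fold changes of -0.39 (adjusted p = 8.87e-04) and -0.38 (adjusted p = 2.58e-04).

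Calls on the other nucleotide synthesis genes were more often lower than higher. Of 17 tested, 3 were higher and 8 lower at day 19 (median -0.14), and none was higher and 10 were lower at day 40 (median -0.27). The shares lower were 47.1% and 58.8%, against 26.5% and 23.3% of all genes tested and 36.5% and 33.7% of those at or above 19.9 CPM. At day 40 against culture, 1 was higher at an unadjusted p under 0.05 by edgeR, and DESeq2 and limma voom called 0 higher, but the fit with the period as a block called 2. RRM2B, the reductase subunit that p53 induces, was at 159, 139.9 and 154 CPM in culture, 46.6, 41.6 and 46.6 CPM at day 19, and 65.7, 55.9 and 67.5 CPM at day 40. Day 19 was lowest with no overlap between the groups. The log2 fold change was -1.75 at day 19 (SE 0.09, adjusted p = 1.42e-08) and -1.26 at day 40 (SE 0.08, adjusted p = 2.91e-07). SAMHD1, which breaks down dNTPs, was at 80.1 ± 5.70 CPM at day 19, against 145 ± 3.42 CPM in culture (-0.86, SE 0.06, adjusted p = 4.23e-07). Its exons overlap 1159 bases of TLDC2. DCK, the deoxycytidine kinase of nucleoside salvage, was at 157 ± 7.98 CPM at day 19, against 256 ± 28.5 CPM in culture (-0.70, SE 0.08, adjusted p = 1.52e-05; SD, n = 3 each).

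Regulators outside the 38 genes included larger changes than any in the 38. The list of E2F, RB and cyclin genes had 28 in the test. At day 19, 8 of them were higher and 7 lower, and at day 40, 8 and 8. These shares were near those of all genes tested. They were 28.6% higher and 25% lower at day 19, against 26.3% and 26.5% of all genes. At day 40 they were 28.6% and 28.6%, against 23.3% and 23.3%. The 8 higher at day 40 became 4 to 5 without day 19 replicate 3 or any day 40 library. CDKN1A, the p21 inhibitor of cyclin-dependent kinases and a p53 target, was at 56.5, 63.6 and 59.6 CPM in culture, 14.6, 12.6 and 17.2 CPM at day 19, and 36.3, 25.5 and 23.4 CPM at day 40. The 3 groups did not overlap, and the log2 fold change was -2.01 at day 19 (SE 0.16, adjusted p = 5.87e-07) and -1.07 at day 40 (SE 0.15, adjusted p = 1.12e-04). CDKN1B, the p27 inhibitor of the same kinases, moved the other way, at 35.1, 44.9 and 35.2 CPM in culture, 89.3, 79.2 and 95.5 CPM at day 19, and 60.5, 67.0 and 73.1 CPM at day 40. The log2 fold change was 1.20 at day 19 (SE 0.11, adjusted p = 2.48e-06) and 0.80 at day 40 (SE 0.11, adjusted p = 1.02e-04). E2F7, a repressor E2F, was at 88.8 ± 4.46 CPM at day 19, against 42.6 ± 7.57 CPM in culture (SD, n = 3 each; 1.06, SE 0.11, adjusted p = 9.81e-06). RB1 was not called, with log2 fold changes of -0.06 at day 19 (adjusted p = 0.453) and -0.06 at day 40 (adjusted p = 0.411).

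Repair and chromatin genes of S phase were more often higher, 11 of 24 at day 19 with 3 lower (median 0.16), and 8 at day 40 with 2 lower (median 0.10). At day 19 the shares were 45.8% higher and 12.5% lower, against 26.3% and 26.5% of all genes tested. At day 40 they were 33.3% and 8.33%, against 23.3% and 23.3%. The difference from all genes was not tested. Leaving out day 19 replicate 2 left 7 of the 11, and leaving out day 40 replicate 3 left 4 of the 8. UHRF1, which carries DNA methylation to the new strand, was at 332, 328 and 312 CPM in culture, 624, 704 and 595 CPM at day 19, and 458, 474 and 493 CPM at day 40. The groups did not overlap, and the log2 fold change was 0.98 at day 19 (SE 0.07, adjusted p = 4.73e-07) and 0.55 at day 40 (SE 0.07, adjusted p = 9.03e-05). RAD9A, part of the checkpoint clamp, was at 48.9 ± 2.10 CPM at day 19, against 31.0 ± 4.95 CPM in culture (0.66, SE 0.10, adjusted p = 1.59e-04). RAD17, which loads that clamp, was at 69.3 ± 2.59 CPM at day 19, against 102 ± 11.5 CPM in culture (-0.56, SE 0.08, adjusted p = 9.78e-05; SD, n = 3 each).

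Calls on G2/M and mitosis genes were more often lower than higher. Of 30, 2 were higher and 15 lower at day 19 (median log2 fold change -0.21), and 2 were higher and 14 lower at day 40 (median -0.17), against 15 higher and 8 lower, and 9 higher and 7 lower, of the 38. The shares lower, 50% and 46.7%, stand beside 36.5% and 33.7% of all genes at or above 19.9 CPM, where lower calls also outnumbered higher ones. The difference between the lists was not tested. The 2 higher at day 40 became 0 or 1 when most single libraries were left out. HMMR, a spindle protein gene, was at 121, 169.8 and 127 CPM in culture, 56.4, 58.2 and 61.4 CPM at day 19, and 64.1, 64.8 and 64.1 CPM at day 40. Its femur levels were below culture throughout (-1.25, SE 0.11, adjusted p = 1.48e-06 at day 19). CDK1, the mitotic kinase, was at 133 ± 7.33 CPM at day 19, against 213 ± 21.2 CPM in culture (-0.68, SE 0.08, adjusted p = 1.69e-05). AURKA, a spindle pole kinase, was at 48.8 ± 2.68 CPM at day 19, against 75.1 ± 1.67 CPM in culture (-0.62, SE 0.07, adjusted p = 1.45e-05). CCNB1, the cyclin partner of CDK1, was at 119 ± 5.37 CPM at day 19, against 158 ± 8.15 CPM in culture (-0.41, SE 0.07, adjusted p = 3.70e-04; SD, n = 3 each). MKI67, the common proliferation marker, was at 808, 540.2 and 864 CPM in culture, 805, 899 and 882 CPM at day 19, and 905, 844 and 893 CPM at day 40. Its groups overlapped and it was not called (0.23, adjusted p = 0.179 at day 19; 0.26, adjusted p = 0.139 at day 40).

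Between day 40 and day 19, 5 genes of these pathway lists were called higher. They were POLD4, RAD17 (0.45, adjusted p = 0.00684), RRM2B (0.49, adjusted p = 0.00596), CDKN1A (0.94, adjusted p = 0.00448) and E2F5 (0.42, adjusted p = 0.0315). The 2 called lower were UHRF1 (-0.43, adjusted p = 0.00517) and the cyclin D gene CCND3 (-0.33, adjusted p = 0.0326). E2F5 and CCND3 were named after their values were seen. Of the E2F and cyclin list, 1 gene in place of 2 was called higher without any 1 of the femur libraries, and 0 in place of 1 lower without any day 19 library or day 40 replicate 1 or 2. None of the 30 G2/M genes was called by edgeR in this comparison, while 3 higher and 2 lower had an unadjusted p under 0.05 and DESeq2 called 2 lower and limma voom 0. Transcript length and base composition were set beside the changes as a description. Over 15121 genes the rank correlation of the log2 fold change at day 19 was 0.02 with transcript length and 0.08 with GC content, and over the 38 genes it was 0.22 and 0.32. At day 40 against culture the values were 0.05 and 0.03 over all, and 0.24 and 0.29 over the 38 genes. For day 40 over day 19 they were 0.04 and -0.18 over all, and -0.13 and -0.37 over the 38 genes. Main transcripts of genes higher at day 19 had a median of 3157 bases, those lower 2136 bases and those not called 3444 bases, and the part of length or base composition in the calls was not tested.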

How the data were processed

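The authors deposited a raw read count for each of 58243 Ensembl identifiers in 9 libraries, and groups came from the day in the titles. The submitters' processing notes list STAR 2.5.2a, featureCounts 1.4.6, FastQC 0.11.5 and DESeq2 1.40.1, and the build hg38. How mouse and multi-mapping reads were handled, the strand setting and the annotation: not given in the sources used here. Symbols, positions and exon lengths came from GENCODE 29 (57980 identifiers named), and promoter sequences from RefSeq, where 33 of 38 genes matched by symbol.

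From the deposited counts, R 4.3.3 with edgeR 4.0.16 kept 15163 genes by filterByExpr, scaled libraries by TMM and fitted a coefficient per group over all 9 libraries. The two-sided quasi-likelihood F-test gave p-values, adjusted by Benjamini-Hochberg over all genes tested. CPM uses TMM-scaled sizes, RPKM is CPM per kilobase of exon, SE is the size of the log2 fold change over the square root of F, and 95% intervals are not adjusted. DESeq2 1.42.0 and limma 3.58.1 (voom) were alternatives, and the procedure was tested on simulated data.

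The genes, lists, tests and naming rule were chosen with earlier results of these data known. The rule named, per role, up to 3 called genes with the largest change against culture, all genes called between day 40 and day 19, and per pathway list up to 3 called genes with at least 5 CPM, no overlap between groups and the largest change, plus MKI67, CCNB1, E2F1, RB1 and CDKN1A. A few of the cell type markers chosen at the outset are not reported here. The dates in the titles place replicates of 1 number in 1 sampling period. Deviations of same-period libraries from their group means correlated at 0.101, 0.132 and 0.305 between day 40 and day 19, all over 0.1, so the period was taken to pair these, and at -0.05 to 0.202 against culture, not over it in every pair. The fit without the block is the main one throughout.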

Additional observations from a re-analysis of the deposited data

Results flagged for a closer look

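In 4 genes the difference from culture was not the same at day 19 and day 40 by edgeR's test of day 40 against day 19. Both days are set against the same culture libraries, so that test compares their fold changes over culture. The log2 fold change, day 40 over day 19, was -0.37 for E2F2, -0.29 for LIG1, -0.22 for UNG and -0.22 for TYMS (adjusted p = 0.0229, 0.0162, 0.0491 and 0.0444), and in each gene all 3 day 40 libraries were below all 3 day 19 libraries. With the sampling period as a block, UNG and TYMS were not called (adjusted p = 0.0538 and 0.0507). E2F2, LIG1 and UNG were above culture at both days, and TYMS was above culture at day 19 (0.19) and not called at day 40 (-0.03). Without day 40 replicates 1 and 2, whose dates cannot be 40 days after their culture library, 0 of the 38 genes were called in this comparison.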

How the results depend on the processing

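No call on the 38 genes changed sign under the 17 alternatives, and 13 of 23 calls at day 19 and 9 of 16 at day 40 against culture were made in every one, while none of the 4 calls of day 40 against day 19 was. Scaled by total counts alone, 3 in place of 8 genes were lower at day 19, and at day 40 14 in place of 9 were higher and 4 in place of 7 lower, with the median of all genes shifted to 0.10. Between day 40 and day 19, 7 genes in place of 4 were lower with DESeq2 and with only the 2 groups compared. Leaving out each library in turn gave 10 to 17 higher and 6 to 8 lower genes at day 19, 6 to 9 higher and 5 to 8 lower at day 40, and 0 higher and 0 to 7 lower between day 40 and day 19. That last count was 0 without day 19 replicate 2 or 3 or day 40 replicate 1, 1 without day 40 replicate 2 or 3, 2 without day 19 replicate 1 or culture replicate 1 or 3, and 7 without culture replicate 2. In an alternative chosen after seeing the data, leaving out day 40 replicates 1 and 2 gave 5 higher and 3 lower genes at day 40 against culture and 0 lower against day 19, in a fit with fewer samples. For the other shifts the cause was not tested. With the period as a replicate block, 15 genes were higher and 7 lower at day 19, 9 and 7 at day 40, and 0 and 3 between day 40 and day 19, where UNG and TYMS were lost and E2F1 was gained. At day 19 against culture GINS2 was lost, and the block changed no other call on the 38 genes. With 3 libraries a group, standard errors were 0.056 to 0.113 on the log2 scale, which limits the size of change that could be called.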
